A study of Mus musculus with 7 samples.

Results

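The genes described here encode the proteins of the cytoplasmic ribosome. They were chosen as the rows of a count table that match, by Ensembl ID, a protein-coding GENCODE symbol of the form Rpl or Rps followed by a number, or Rplp0, Rplp1, Rplp2 or Rpsa, without the Rps6k kinases and without symbols that mark a pseudogene. This gave 86 genes of 52636 in the table. Of these, 43 encode proteins of the large subunit, 31 of the small subunit and 3 of the acidic stalk. Another 8 are paralogs of a main copy (Rpl3l, Rpl7l1, Rpl10l, Rpl22l1, Rpl36al, Rpl39l, Rps27l and Rps27rt). Rps19bp1 fits the rule by its name but encodes a protein that binds Rps19, not a ribosomal protein. A filter on low counts kept 85 genes for testing and removed Rpl3l.

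The ribosome joins a small subunit, which reads the messenger RNA, to a large subunit, which forms the peptide bond, and each carries its own set of proteins around a core of ribosomal RNA. The proteins are made in near equal numbers, their mRNAs are short and abundant, and many begin with a run of pyrimidines at the 5′ end that links their translation to mTOR signalling. Most mammalian ribosomal proteins come from a main gene with many processed pseudogenes, and a few have an expressed paralog with a more restricted pattern.

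The data are RNA-seq counts from the inner cell mass (ICM) of mouse blastocysts, in a study of how a short pulse of ERK signalling changes transcription. All embryos had the genotype Sox2Cre;CRAFR26, in which a tamoxifen-responsive cRAF construct is used to induce ERK and Cre is driven by Sox2, a gene of the early embryo. They were flushed at embryonic day 2.5 and grown for 24 h in KSOM medium that contained PD173074 at 250 nM, a blocker of FGF receptors given to both groups. The tamoxifen group also received 250 nM 4-hydroxytamoxifen for 4 h, and the vehicle group received ethanol for 4 h, although its time label reads 0 h. Immunosurgery stripped off the outer trophectoderm, 10 ICMs were pooled per library, and 2 ng of their RNA went into it. There were 3 vehicle libraries (clone4_1, clone4_2 and clone8_1) and 4 tamoxifen libraries (clone4_1, clone4_2, clone8_1 and clone8_2), from 2 clones of the construct. The series text records that a further vehicle sample was dropped by the authors at quality control, so clone 8 has 1 vehicle library. P-values measure the spread between these pools.

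Libraries held from 22981498 to 42294719 counts. The labels call the cells epiblast at embryonic day 3.5. All 11 epiblast, 8 primitive endoderm and 9 trophectoderm markers had counts in every library. Summed levels of the epiblast markers were 2251 to 2649 CPM (counts per library size corrected by TMM factors) in vehicle and 2273 to 2730 CPM in tamoxifen libraries. Primitive endoderm markers summed to 804 to 1105 and 842 to 978 CPM, and trophectoderm markers to 8464 to 11190 and 6516 to 9489 CPM. The label of epiblast therefore names 1 of the cell types whose markers were present. No marker was called, where 0% of all genes tested were called. All 9 trophectoderm markers had a negative log2 fold change, where 51.7% of all genes were above 0. The epiblast markers split into 8 higher and 3 lower, and the primitive endoderm markers into 6 higher and 2 lower. The part of the trophectoderm markers in the results below was not tested. In bulk samples, fewer cells of a type and less RNA per cell cannot be told apart. Vehicle clone8_1 stood apart through low counts for short transcripts, so the main comparisons of the family are given with and without it. The marker results include it. It held the highest vehicle sums for epiblast (2649 CPM) and primitive endoderm (1105 CPM) markers, but not for trophectoderm markers (8980 CPM).

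The start regions of several of these genes hold short motifs. The windows below are RefSeq sequences on GRCm38.p6, each read 5′ to 3′ on the gene's own strand, and capitals mark the motif CTCTTTC, a run of pyrimidines. They were picked because the motif lies close to the annotated transcription start. In Rpl28 and Rpl35 the motif begins at the annotated first base. In Rpl18 and Rps26 the annotated first base is a G that lies before the motif, so the motif is not terminal there.

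Rpl28, chr7:4792953-4792982, plus strand: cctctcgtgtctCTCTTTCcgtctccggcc

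Rpl35, chr2:39005114-39005143, minus strand: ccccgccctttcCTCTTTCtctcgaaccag

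Rpl18, chr7:45718060-45718089, plus strand: tctcgcaggccgCTCTTTCcccgcccactc

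Rps26, chr10:128626484-128626513, minus strand: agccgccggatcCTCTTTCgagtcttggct

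RefSeq start windows, from 250 bases before to 50 bases after the start, were matched by symbol for 66 of the 86 genes. CTCTTTC on the gene strand occurred in 13 of the 66 windows (19.7%), against 4.41% of 17492 protein-coding genes. Within 10 nt of the start it occurred in 5 of the 66 (7.58%; Rpl18, Rpl28, Rpl35, Rpl35a and Rps26), against 0.36% of protein-coding genes. CCGGAAG, the core of sites bound by ETS-family factors, was searched on both strands and occurred in 26 of 66 windows (39.4%), against 12.9%. ETS-family factors include known effectors of ERK signalling. Below, capitals mark CCGGAAG in windows of a paralog and a pair of main genes.

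Rps27l, chr9:66946083-66946112, plus strand: gccgcctctatcCCGGAAGttgctgagggg

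Rpl31, chr1:39367847-39367876, plus strand: cctccccgtgacCCGGAAGttgtacggcta

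Rpl38, chr11:114668548-114668577, plus strand: ggggttaaccgtCCGGAAGcggaagcctcg

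The motif AAGATGG, the core of sites bound by YY1, was in 7.58% of the windows on the gene strand against 4.16% of protein-coding genes. TATAAA, the TATA box, was in 9.09% against 9.82%. CCGGAAG and AAGATGG can share the letters AAG. These shares describe letters in a window. They measure neither binding nor how many mRNAs begin with a run of pyrimidines.

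Messages of these genes were abundant in the ICM. Over the 6 libraries other than vehicle clone8_1, the median gene of the family had 701 CPM, against 9.88 CPM for all genes tested, and 78 of the 86 averaged at least 100 CPM. The family supplied 19 of the 100 most abundant genes. Per kilobase of typical transcript, the median was 894 CPM per kb. Highest on that scale were Rps14 (2369), Rps18 (2288), Rpl41 (2175), Rpl13 (2084) and Rpl4 (1837). Rps14 and Rps18 belong to the small subunit, and Rpl41 is the shortest member, with a coding sequence of 138 nt.

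Rps14 had 1666, 1291 and 289 CPM in the vehicle libraries clone4_1, clone4_2 and clone8_1, and 1596, 1428, 2018 and 1481 in tamoxifen clone4_1, clone4_2, clone8_1 and clone8_2. Further library values follow this order. Rps18 had 1441, 984 and 202 CPM with vehicle and 1217, 1134, 1540 and 1146 CPM with tamoxifen. Rpl41 had 1260, 914 and 184 CPM with vehicle and 1048, 901, 1490 and 1259 CPM with tamoxifen. In each of these genes the vehicle and tamoxifen libraries overlapped once vehicle clone8_1 was set aside, and the spread was wide enough that their order per kb is not resolved.

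At the low end on the same scale were Rpl24 (2.98 CPM per kb), Rpl36al (7.51), Rpl13a (58.2), Rps27rt (67.3) and Rpl10l (86.3), besides Rpl3l. Rpl24 and Rpl13a are core proteins of the large subunit. In GENCODE M21 their exons overlap those of Gm28037 and Gm45713 on the same strand, and exons of Rpl36al overlap those of Gm49383. All 3 overlapping genes are listed at 0 in every library, and whether reads of the shared exons were counted for neither gene was not tested. Levels of Rpl24, Rpl13a and Rpl36al are therefore uncertain.

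Sequence shared with other genes makes counts of the family uncertain more widely. Of the 86 genes, 82 shared at least 1 stretch of 50 nt of transcript with another gene, with a median of 56.5% of their 50-nt stretches shared, and 51 shared 50% or more. The 4 that shared none include Rpl39l, Rpl3l and Rps19bp1. The 291 rows of ribosomal protein pseudogenes took 0.111% to 0.154% of counts in the 6 libraries and 0.0457% in vehicle clone8_1.

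Together the 86 genes took 6.41%, 5.57% and 2.29% of counts in the vehicle libraries and 5.82%, 5.36%, 6.80% and 6.20% in the tamoxifen libraries. Vehicle clone8_1 was far below the rest, and the other 6 overlapped between groups. The Wilson 95% interval of a share was at most 0.0187 percentage points wide, which covers counting error only, since amplified reads without molecular identifiers are not independent molecules. The mean was 4.76% ± 2.18 (SD, n = 3) with vehicle and 6.05% ± 0.607 (SD, n = 4) with tamoxifen. Without vehicle clone8_1 the vehicle mean was 5.99% ± 0.596 (SD, n = 2), a difference from tamoxifen smaller than the spread within either group.

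**Figure D1:**
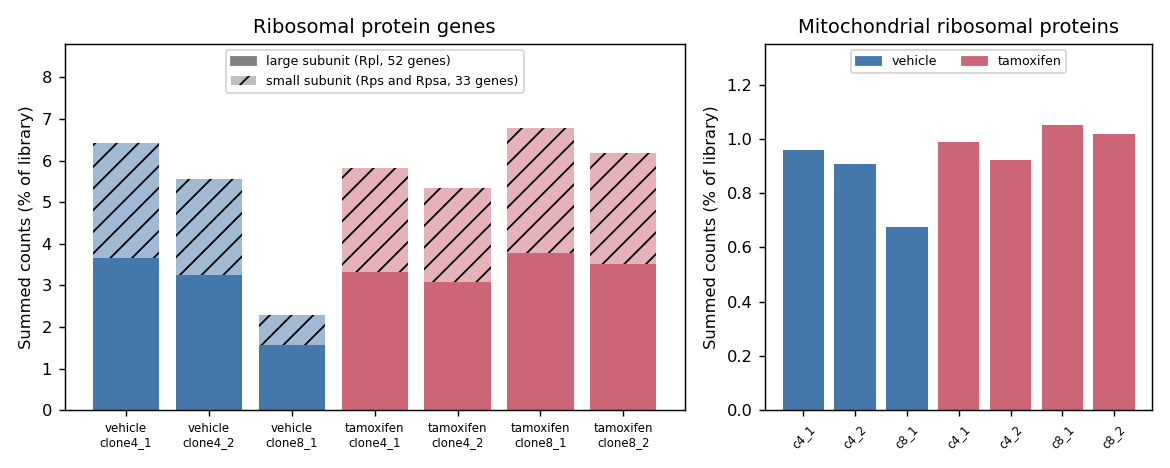
Summed counts of 52 large-subunit and 33 small-subunit genes, with paralogs (left, stacked) and of 78 mitochondrial ribosomal protein genes (right), as % of each library's counts, with vehicle in blue and tamoxifen in red. Each bar is 1 library; vehicle clone8_1 is lowest in both panels, with a larger loss on the left.

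Small-subunit genes gave 41.6% to 44.2% of the family's counts in the 6 libraries and 31.7% in vehicle clone8_1. Large-subunit genes took 3.07% to 3.78% of all counts in the 6 libraries and 1.56% in vehicle clone8_1. Among them, the 3 with a coding sequence of at least 1000 nt (Rpl3, Rpl4 and Rpl3l) took 0.405% to 0.478% and 0.54%. A difference between subunits apart from length was not tested. The mitochondrial ribosomal proteins, which serve the separate ribosome of mitochondria, took 0.908% to 1.05% of counts in the 6 libraries and 0.676% in vehicle clone8_1.

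Among the members, the difference of vehicle clone8_1 from the other libraries followed coding length more closely than typical transcript length. For each tested gene, the deviation is its log2 CPM in a library minus the median of the other 6. In vehicle clone8_1, 82 of 85 members lay below 0, with a median of -2.30 and a range from -2.90 to 0.31, while the median of all tested genes was -0.036. The other libraries had medians between -0.168 (tamoxifen clone4_2) and 0.29 (tamoxifen clone8_1). Across the 85 members the deviation in vehicle clone8_1 rose with coding length, with a Spearman rho of 0.85. With the typical transcript length the rho was 0.612. The points share a library, so both are descriptions. The 4 members with a typical transcript of at least 2000 nt had a median deviation of -2.25, against 0.084 for 8520 other genes of that length. Rps20 (3706 nt, coding 357 nt) had -2.71 and Rps15a (5130 nt, coding 390 nt) had -2.55, so their long annotated transcripts did not go with high values.

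The 4 lowest deviations in vehicle clone8_1 were those of Rpl39 (-2.90), Rps21 (-2.87), Rps27rt (-2.84) and Rps26 (-2.77). The 4 highest were Rpl4 (0.31), Rpl3 (0.29), Rpl7l1 (0.17) and Rplp0 (-0.24). Rpl39 encodes a very small protein at the exit of the nascent peptide tunnel, and its levels were 243, 168 and 27.5 CPM with vehicle and 184, 160, 246 and 231 CPM with tamoxifen. Rpl4, a core protein of the large subunit with the longest coding sequence of the family (1257 nt), had 3038, 2876 and 3489 CPM with vehicle and 2735, 2789, 2652 and 2857 CPM with tamoxifen. Vehicle clone8_1 was thus the lowest library for Rpl39 and the highest for Rpl4. Rpl3, a core protein beside the peptidyl transferase centre, had 1810, 1445 and 1779 CPM with vehicle and 1457, 1459, 1433 and 1502 CPM with tamoxifen, and its groups overlapped. Rps26, a small-subunit protein near the exit of the messenger RNA, had 1106, 896 and 153 CPM and 987, 852, 1222 and 1142 CPM.

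Members with a coding sequence under 300 nt had a median deviation of -2.64 (11 genes), against -1.69 for 231 other protein-coding genes of that length. From 300 to under 450 nt the medians were -2.43 (30 genes) and -1.25 (628 genes). From 450 to under 600 nt they were -2.19 (19 genes) and -0.50 (779 genes). From 600 to under 1000 nt they were -1.14 (23 genes) and -0.039 (2501 genes). For the 2 members of at least 1000 nt, Rpl3 and Rpl4, the median was 0.30, against 0.11 for 8759 other genes. In each class under 1000 nt the ribosomal proteins were further below 0 than other genes of like coding length, and the difference was not tested. These classes were not matched for transcript length. Members with a typical transcript under 600 nt had a median of -2.60 (24 genes), against -2.07 for 220 other genes. From 600 to under 1000 nt of transcript the medians were -2.04 (42 genes) and -1.20 (847 genes). From 1000 to under 2000 nt they were -0.88 (15 genes) and 0.039 (3318 genes).

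**Figure D2:**
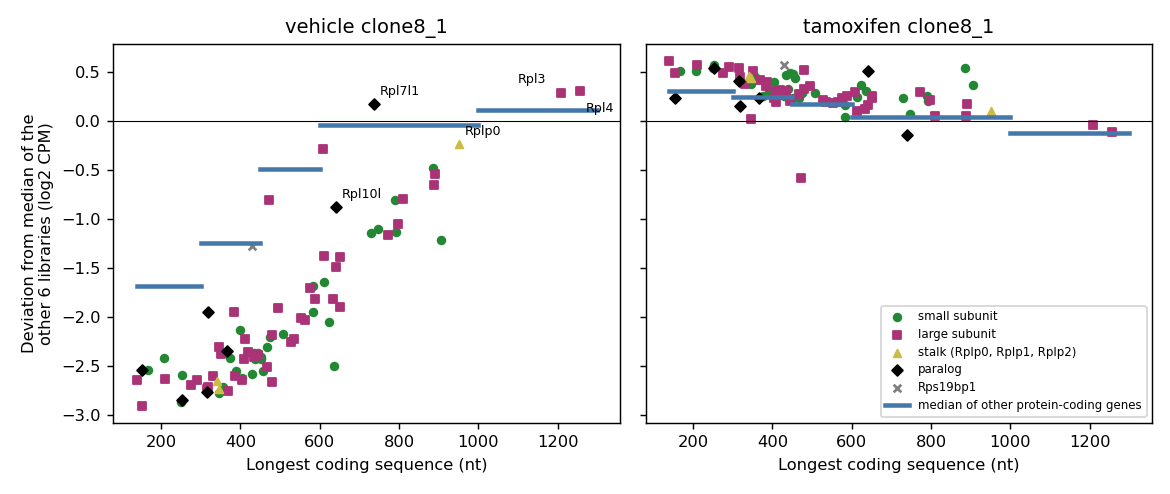
Deviation of each of 85 tested genes (log2 CPM minus the median of the other 6 libraries) against the length of its longest coding sequence in nt, in vehicle clone8_1 (left) and tamoxifen clone8_1 (right), with the median of other protein-coding genes per length class as blue lines. On the left short genes reach -2.90 and Rpl4 and Rpl3 lie above 0; on the right most short genes lie slightly above 0.

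Mitochondrial ribosomal proteins followed the same order in vehicle clone8_1, with a rho of 0.87 over 77 genes. In tamoxifen clone8_1 and clone8_2 the rho of the cytoplasmic genes was -0.604 and -0.659, and in vehicle clone4_2 it was 0.541, with far smaller deviations. Over the 6 libraries without vehicle clone8_1, the SD of log2 CPM had a median of 0.186 over the members, close to 0.193 for 2180 other genes of at least 100 CPM. It was lowest for Rpl4 and Rpl6 (0.068 each).

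The comparison of tamoxifen with vehicle asks whether these messages change after 4 h of ERK induction. No member was called at an adjusted p under 0.05 by edgeR's quasi-likelihood test, where 0% of the 16248 genes tested were called, and none by DESeq2, which called 0.0246% of genes. Log2 fold changes were above 0 for 81 of 85 members, against 51.7% of all genes, with a median of 0.44 against 0.019. Without vehicle clone8_1, 41 were above 0 and 44 below, against 50.4% above 0 for all genes, with a median of -0.008, and again none was called (0% of genes). At an unadjusted p under 0.05 there was 1 member, Rpl10l, in each of these fits, against 5.97% and 6.54% of all genes.

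Within clone 4, which has 2 libraries in each group, 13 members were above 0 and 72 below, against 48.7% above 0 for all genes. Their median was -0.137, the median of all genes was -0.014, and no member was called by edgeR (0% of genes). At an unadjusted p under 0.05 there were 2, Rpl10l (higher) and Rpl27a (lower), against 7.87% of genes. Within clone 8, where the 1 vehicle library gives no replicate, 82 members were above 0, with a median difference of 2.39. That library is vehicle clone8_1, where the median deviation of the members was -2.30 and that of all tested genes -0.036. The share of all genes above 0 within clone 8 is not given.

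**Figure D3:**
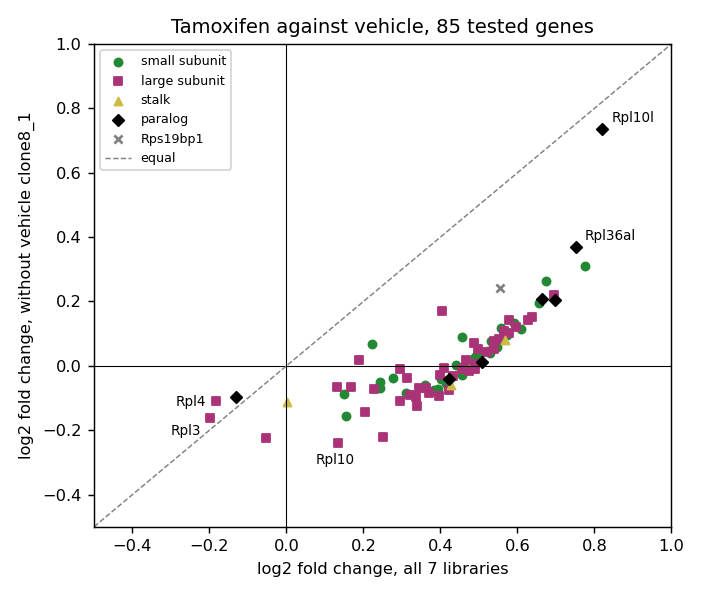
Log2 fold change of tamoxifen against vehicle for 85 tested genes, with all 7 libraries (horizontal axis) and without vehicle clone8_1 (vertical axis); the dashed line marks equal values. Most genes lie right of 0 and close to 0 on the vertical axis, and Rpl10l lies near the line, at 0.82 and 0.74.

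For 72 of 85 members edgeR called an interaction of clone and condition, against 3.16% of all genes tested. At an unadjusted p under 0.05 there were 78 members (14.8% of all genes), and 81 had a value above 0 (54.5% of all genes). The change was higher in clone 8 for all 72, a direction called in 3.14% of all genes. Sizes ran from 1.23 to 3.37 on the log2 scale with a median of 2.62. The clone 8 side rests on vehicle clone8_1 alone, and the term cannot be told apart from that library. With a correction for transcript length fitted in each library, 49 members were called, against 0.837% of all genes. DESeq2 called 73 (6.3% of all genes), and edgeR without a filter on low counts called 74 (3.49%). The 13 members not called were Rpl3, Rpl4, Rpl5, Rpl6, Rpl7, Rpl7l1, Rpl10l, Rpl13a, Rplp0, Rpsa and Rps4x, with coding sequences above the family's median of 454 nt, and the weakly counted Rpl24 and Rpl36al.

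Ranges of the groups did not overlap, with tamoxifen higher, for 3 of 85 members, Rpl10l and Rpl36al among them, against 3.71% of all genes. Only Rpl4 (1 member) did not overlap with tamoxifen lower, against 4.74% of genes. Without vehicle clone8_1, the higher 3 were the same (7.72% of genes), and the lower 2 were Rpl4 and Rpl15 (8.94% of genes). Leaving out a library also raised the shares of all genes. Without vehicle clone4_1 there were 22 higher members (11.4% of all genes) and 1 lower (10.4%), in a comparison where vehicle clone8_1 is 1 of 2 vehicle libraries. Without vehicle clone4_2 there were 6 higher (8.51%) and 2 lower (9.52%), and without tamoxifen clone4_2 there were 7 higher (5.57%) and 2 lower (6.57%). Without both clone8_1 libraries there were 3 higher (11.7%) and 6 lower (12%). With all libraries, the counts of 3 and 1 of 85 were no higher than the shares of all genes.

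Rpl10l (ENSMUSG00000060499, chromosome 12, 66283379 to 66284401, minus strand) is an intronless copy of the X-linked gene Rpl10, whose protein helps to join the subunits, and is known for its role in male meiosis. It had 52.8, 68.9 and 51.7 CPM with vehicle and 108, 107, 109 and 84.8 CPM with tamoxifen. All 4 tamoxifen libraries were above all 3 vehicle libraries. For clone 8 the vehicle side is vehicle clone8_1 alone, where 82 of 85 members lay below 0. That clone therefore gives no separate support. Means for Rpl10l were 57.8 ± 9.61 CPM (SD, n = 3) and 102 ± 11.5 CPM (SD, n = 4). The difference came to 0.82 ± 0.18 (SE) on the log2 scale. It did not pass edgeR's test (adjusted p = 0.794, unadjusted p = 0.000972, rank 4 of 16248 by p). Its rank by p was 62 of 16936 without vehicle clone8_1 and 92 of 16060 within clone 4.

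The value for Rpl10l without vehicle clone8_1 was 0.74 (edgeR, adjusted p = 0.746), and within clone 4 it was 0.81 (edgeR, adjusted p = 0.55). DESeq2 gave adjusted p-values of 0.0909 for all libraries and 0.0189 within clone 4, where it called 0.872% of all genes. Within clone 4 edgeR without a filter on low counts also called it (adjusted p = 0.0192; 0.827% of genes). The interaction with clone for Rpl10l was 0.09 ± 0.34 (SE), and -0.468 with the correction for transcript length. It rests on vehicle clone8_1, where the deviation of Rpl10l was -0.879, or -0.329 with that correction. Without the correction the deviation was -0.846 in vehicle clone4_1 and -0.464 in vehicle clone4_2. The value of -0.879 is therefore not particular to vehicle clone8_1. Only 7.6% of the 50-nt stretches of Rpl10l occur in another annotated gene, against 92.1% for Rpl10. These shares cover exact matches only, and how reads were assigned to the copy was not tested.

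Rpl10 (ENSMUSG00000008682, chromosome X) had 1402, 1524 and 489 CPM with vehicle and 1340, 961, 1441 and 1249 CPM with tamoxifen. Apart from vehicle clone8_1, the highest library was a vehicle and the lowest a tamoxifen library, and the groups overlapped. Its log2 fold change was 0.13 ± 0.33 (SE; edgeR, adjusted p = 0.941) and -0.24 without vehicle clone8_1. Counts of Rpl10l were 3.77%, 4.52% and 10.6% of those of Rpl10 with vehicle and 8.05%, 11.1%, 7.56% and 6.79% with tamoxifen. In clone 4 the tamoxifen ratios were above the vehicle ratios; vehicle clone8_1, where Rpl10 was low, had a ratio among the highest. The start regions of the copy and its parent are shown because the paralog is a separate transcription unit. Capitals mark the bases from the RefSeq start onwards.

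Rpl10, chrX:74270801-74270830, plus strand: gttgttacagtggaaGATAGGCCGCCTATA

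Rpl10l, chr12:66284387-66284416, minus strand: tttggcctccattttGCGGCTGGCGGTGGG

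Neither CTCTTTC nor CCGGAAG occurs in the start windows of Rpl10 or Rpl10l.

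Rps27l, a paralog of Rps27 known as a target of p53, had counts of the same order as those listed for its main copy. It had 799, 603 and 99.7 CPM with vehicle and 707, 640, 852 and 650 CPM with tamoxifen, and Rps27 had 576, 391 and 81.6 CPM and 421, 419, 622 and 620 CPM. Its counts were 105% to 168% of those of Rps27 in the 6 libraries, and per kilobase its level was 0.896 times that of Rps27. Of the 50-nt stretches of Rps27, 98.6% occur in other genes, against 13.7% for Rps27l. Counts of Rps27, and so both ratios, are therefore uncertain. Groups overlapped for both genes. The log2 fold change of Rps27l was 0.51 ± 0.51 (SE; edgeR, adjusted p = 0.84) and 0.013 without vehicle clone8_1.

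Rps27rt, a retrocopy of Rps27, had 28.1, 17.4 and 3.36 CPM with vehicle and 21.4, 21.4, 31.0 and 31.9 CPM with tamoxifen. Its counts held a narrow ratio to those of Rps27, 4.12% to 5.14% in all 7 libraries, and 91.1% of its 50-nt stretches occur in other genes, most often in Rps27. Its counts are therefore uncertain. The start windows of the pair share a run of 38 nt, and capitals mark the first bases of that run.

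Rps27, chr3:90213626-90213655, minus strand: tttcgctcCTTTCCGGCGGTGACGACCTCC

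Rps27rt, chr9:114982718-114982747, minus strand: atcccttgCTTTCCGGCGGTGACGACCTCC

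Rpl39l, a paralog of Rpl39 known mainly from male germ cells, had 107, 143 and 25 CPM with vehicle and 148, 118, 152 and 164 CPM with tamoxifen. It shares no 50-nt stretch with another gene. Its counts were 44.0%, 85.5% and 90.7% of those of Rpl39 with vehicle and 80.3%, 73.6%, 61.9% and 71.2% with tamoxifen, with the groups overlapping. Its log2 fold change was 0.66 ± 0.45 (SE; edgeR, adjusted p = 0.803) and 0.21 without vehicle clone8_1.

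**Figure D4:**
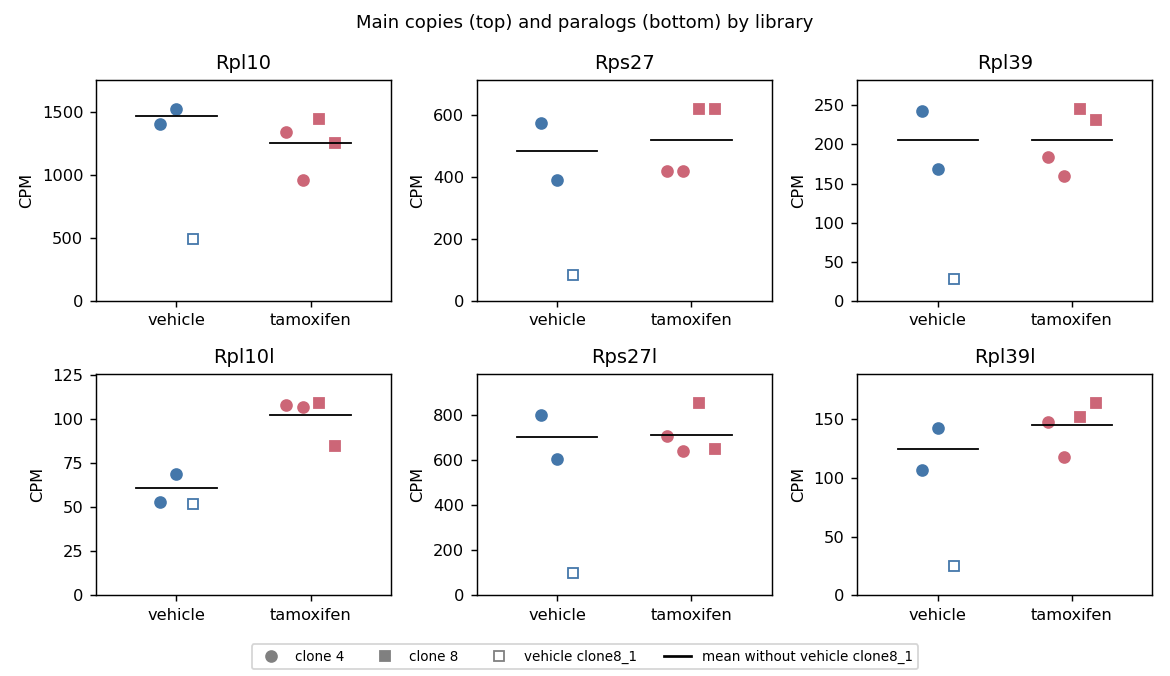
Levels in CPM of the main copies Rpl10, Rps27 and Rpl39 (top) and their paralogs Rpl10l, Rps27l and Rpl39l (bottom) in each library, as circles for clone 4 and squares for clone 8, with vehicle in blue and tamoxifen in red; the open square is vehicle clone8_1 and the lines are means without it. Rpl10l is the gene whose groups do not overlap, and vehicle clone8_1 is far below the other libraries in the other 5 panels.

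Rpl22l1, whose protein can replace that of Rpl22 in the ribosome, had 65.8, 74.9 and 13.4 CPM with vehicle and 67.3, 69.7, 78.3 and 60.1 CPM with tamoxifen. Its counts were 20.2% to 31.2% of those of Rpl22 in the 6 libraries and 18.8% in vehicle clone8_1. Rpl7l1 was steady, at 402, 401 and 438 CPM with vehicle and 379, 407, 363 and 363 CPM with tamoxifen. Its log2 fold change was -0.13 ± 0.14 (SE; edgeR, adjusted p = 0.85), and it was one of 3 members above 0 in vehicle clone8_1.

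Rpl36al, a paralog of Rpl36a, had 5.73, 3.74 and 1.51 CPM with vehicle and 5.85, 6.16, 6.43 and 6.22 CPM with tamoxifen. The lowest tamoxifen library was only slightly above the highest vehicle library, and the log2 fold change of 0.75 ± 0.43 (SE) was not called (edgeR, adjusted p = 0.798). Rpl3l, the paralog of Rpl3 known from striated muscle, had 0 counts in 5 libraries, where 3 counts would be 0.0709 to 0.131 CPM. It had 6 and 7 counts in tamoxifen clone8_1 and clone8_2, or 0.217 and 0.170 CPM.

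Rps19bp1, the name match, had 82.2, 85.2 and 36.1 CPM with vehicle and 85.1, 89.4, 127 and 97.2 CPM with tamoxifen, with a log2 fold change of 0.55 ± 0.29 (SE; edgeR, adjusted p = 0.794) and 0.24 without vehicle clone8_1.

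Rplp0, the base of the stalk that recruits elongation factors, had 2081, 1664 and 1484 CPM with vehicle and 1698, 1622, 1805 and 1850 CPM with tamoxifen. Rplp1, which binds it, had 741, 519 and 97.2 CPM and 577, 456, 752 and 648 CPM. Rplp2, the partner of Rplp1, had 719, 621 and 102 CPM and 641, 593, 853 and 764 CPM. The groups overlapped for all 3, and the loss in vehicle clone8_1 separated the long Rplp0 from the short Rplp1 and Rplp2. Rpsa, a small-subunit protein also named as a laminin receptor, had 674, 608 and 457 CPM with vehicle and 634, 529, 898 and 643 CPM with tamoxifen.

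Among members with known roles outside the general one, none was called and groups overlapped for each. Rps6, the substrate of S6 kinase, had 954, 895 and 425 CPM with vehicle and 912, 818, 944 and 918 CPM with tamoxifen. Rpl5 and Rpl11 hold back Mdm2, the inhibitor of p53, when ribosome assembly is disturbed. Rpl5 had 799, 785 and 542 CPM with vehicle and 768, 744, 874 and 843 CPM with tamoxifen. Rpl11 had 824, 693 and 155 CPM and 694, 637, 791 and 759 CPM. Rps19, mutated in Diamond-Blackfan anaemia, had 1010, 908 and 169 CPM and 899, 816, 1114 and 1009 CPM. Rpl38, known for a skeletal phenotype in mice, had 285, 214 and 43.1 CPM and 251, 238, 363 and 319 CPM.

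Related gene groups were read from the same fit, and none of their members was called for condition. Some ribosomal proteins have names of another form and fall outside the rule. Fau, which encodes a short fusion with Rps30, had 906, 748 and 176 CPM with vehicle and 877, 791, 1118 and 886 CPM with tamoxifen. Rack1, a longer message for a scaffold on the small subunit, had 897, 916 and 837 CPM and 884, 798, 1091 and 875 CPM. The short Fau was low in vehicle clone8_1 and the longer Rack1 had a deviation of -0.090 there, the same order by length as among the members.

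Of 21 translation factors, 11 were above 0 and 10 below, with a median of 0.023, and their median deviation in vehicle clone8_1 was 0.23. Of 24 ribosome assembly factors, 7 were above 0 and 17 below, with a median of -0.136 and a median deviation of 0.36. Without vehicle clone8_1, 8 translation factors were above 0 and 13 below, with a median of -0.035. For the assembly factors, 11 were then above 0 and 13 below, with a median of -0.013. Of 77 tested mitochondrial ribosomal proteins, 56 were above 0 and 21 below, with a median of 0.28, and of 0.076 without vehicle clone8_1. Their median deviation in vehicle clone8_1 was -0.773, and 25 had a called interaction of clone and condition. The interaction was called for 5 of 21 translation factors and 2 of 24 assembly factors, beside 72 of 85 members and 3.16% of all genes, and it rests on vehicle clone8_1 in each list. In vehicle clone8_1, 9 of 21 translation factors and 4 of 24 assembly factors lay below 0, against 82 of 85 members. The lists were not matched for length: 83 of the 86 members have a coding sequence under 1000 nt, and most assembly factors a longer one. The difference was not tested.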

How the data were processed

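RNA-seq was made by the authors from 7 libraries of pooled ICMs with a low-input amplification kit, per the labels' protocols. The authors deposited a table of raw counts, with Ensembl genes in rows. The submitters' processing notes name bcl2fastq 2.19.1, STAR 2.5.3a and mm10; the counting program, annotation release and strand setting are not given in the sources used here. Of 52636 rows, 52489 matched GENCODE M21 (GRCm38) and 147 did not. The members and lists were chosen with earlier results of these data known.

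Counts were tested with edgeR 4.0.16 (R 4.3.3): TMM factors, the expression filter by group, the quasi-likelihood test, and Benjamini-Hochberg adjustment over all genes tested (called under 0.05). CPM used TMM factors and log2 values a prior count of 2. The design took condition alone, clone 4 alone, and the interaction of clone and condition. DESeq2 1.42.0, other scalings, no filter, a length correction, clone as a covariate, a replicate block and left-out libraries were tried. Code was tested on simulated data. Typical length is the median over basic protein-coding transcripts, and coding length is the longest coding sequence. Rps20 and Rps15a have long annotated transcripts, which lowers their values per kilobase.

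Library values were given for paralogs and their main copies, stalk genes and Rpsa, the highest per kilobase over all 7 libraries, the smallest p-values in each direction, the extremes in vehicle clone8_1, and Rps6, Rps19, Rpl5, Rpl11, Rpl38 and Rps19bp1; some are given as ranges or ratios. Rps4l was listed among the paralogs to name but is annotated as a pseudogene, and it is no member. Rpl13, Rpl27a, Rpl15, Rpl24, Rpl6, Rps20 and Rps15a were named after their values were seen, as were the genes whose sequence is shown. Some genes covered by the rule or the lists are not reported here.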

Additional observations from a re-analysis of the deposited data

Results flagged for a closer look

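Within the tamoxifen group, 2 of the genes reported had a library whose gap to its nearest neighbour filled most of the group's range: Rpl10l in clone8_2 (84.8 CPM, below the others) and Rpl7 in clone4_2 (1038 CPM, below). Chance marks about 1 in 20 groups of values, and 35 were examined. The interaction term of clone and condition was called by edgeR for 72 members. Vehicle clone8_1 is the only vehicle library of clone 8, so a difference between clones cannot be told apart from that library.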

How the results depend on the processing

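No member was called for condition under any alternative tried. Within clone 4, Rpl10l alone was called by DESeq2 and with no filter on low counts (1 member each), and leaving out single libraries gave 0 to 1. The interaction count was 73 with DESeq2, 74 with no filter and 49 with the length correction.

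The median log2 fold change of the members was 0.263 with the length correction, 0.746 with clone as a covariate, -0.080 without both clone8_1 libraries, and from -0.008 to 0.794 with single libraries left out. With the replicate block it was 0.699. Same-numbered libraries did not deviate together (correlations 0.00775, 0.0206 and -0.0683), so the numbers were not taken to pair samples, and the replicate block changed no call. The median deviation in vehicle clone8_1 was -1.186 after a length correction chosen after seeing the data. Members without overlap were 3 to 22 (higher) and 1 to 2 (lower) with single libraries left out; without vehicle clone4_1, 11.4% and 10.4% of all genes did not overlap. The lower count was 0 with upper-quartile scaling, 0 with TMM factors from long non-member genes and 6 without both clone8_1 libraries (12% of all genes).

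Signs turned without both clone8_1 libraries for Rpl22l1 (-0.104), Rps27l (-0.080), Rpl10 (-0.311) and Rpl39 (-0.104), and with the length correction for Rpl10 (-0.078). With single libraries left out, log2 fold changes ran from -0.040 to 0.797 for Rpl22l1, -0.225 to 0.251 for Rpl13a, -0.239 to 0.399 for Rpl10 and -0.011 to 1.068 for Rpl39. Rpl10l ran from 0.61 to 0.96 over all its alternatives, with adjusted p from 0.0909 (DESeq2) to 0.961. The cause of these changes was not tested. Low counts limit the values of Rpl3l, Rpl24 and Rpl36al.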
